A study of Sus scrofa with 41 samples.

Results

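The proteasome subunit genes were the 43 genes of the deposited count files whose symbol begins with PSMA to PSMG followed by a number, out of 25880 genes counted. Of 46 such symbols in the pig name table, PSMD2, PSMA6 and PSMG1 had no row in the files. Outside those 46, the subunits PSMB5 and PSMB6 and the chaperones PSMG2 and PSMG4 were paired with no gene ID. Counts above 0 were found for 42 of the 43, and 39 passed the filter on low counts that left 11146 genes in all. PSMA8, PSMB11, PSME1 and PSMC3IP did not pass. PSMC3IP and PSME3IP1 carry matching symbols but are interaction partners and no subunits, so each was kept as a member and left out of the subunit classes.

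mRNA was measured in the psoas major, the tenderloin muscle, of 41 uncastrated male pigs of the Danish breeding lines Danbred Duroc (13 pigs) and Danbred Landrace (28 pigs). All were raised on a breeding station to a similar slaughter weight, no treatment is labelled, and each pig gave 1 library. Duroc pigs were sampled at 131 to 156 days of age (median 148) and Landrace pigs at 147 to 166 days (median 154.5). The RNA integrity number (RIN, a score of how intact the RNA is) was 7.0 to 8.8 in Duroc (median 8.2) and 6.5 to 8.3 in Landrace (median 8.0), and the feed conversion ratio (FCR) was 1.83 to 2.18 in Duroc (median 1.94) and 1.92 to 2.25 in Landrace (median 2.1). Breeds therefore differed in age, FCR and RIN, and coefficients come from 1 model that held breed, RIN, age, FCR and batch together, unless another fit is named.

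Libraries held 22188911 to 25954816 counted pairs, with a median of 25243577. The scaling factors of edgeR (TMM) ran from 0.65 to 1.24 and moved with RIN across the 41 pigs (Pearson's r = 0.749), at 0.65 to 0.888 in the 6 pigs with RIN below 7.5 and 0.939 to 1.24 in the 12 pigs with RIN of 8.3 or more. The 3 libraries with the lowest totals were Landrace 27, Duroc 10 and Landrace 1, whose RIN was 6.6, 7.0 and 6.5. The labelled tissue was borne out by 8 muscle fibre genes, which together held 127350 to 234944 CPM (counts scaled to a common library size) in every pig, while 20 leukocyte genes together held 19 to 154 CPM, with the B cell genes MS4A1 and CD79B at median counts under 5. In whole muscle, fewer cells of a type and less RNA per cell cannot be told apart.

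The proteasome is the protease that degrades proteins tagged with ubiquitin, and in skeletal muscle it carries out much of the turnover of myofibrillar protein. Its barrel-shaped core is built from alpha (PSMA) and beta (PSMB) subunits, and the regulatory particle on its ends is made of a base with ATPases (PSMC) that unfold substrates and a lid (PSMD) that removes ubiquitin. Interferon induces PSMB8, PSMB9 and PSMB10, which replace the constitutive catalytic beta subunits to form the immunoproteasome, and the activator subunits PSME1 and PSME2, and the peptides made are loaded on MHC class I molecules.

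The deposited unstranded count leaves out pairs that fall on 2 genes, and the subunits differed in how many pairs it holds. In the files' 2 strand-specific columns such pairs can be assigned, to both genes where these overlap, so the share of the strand-column pairs that the unstranded count kept was compared between members. It was 0.662% for PSME1, 5.21% for PSME2, 16.5% for PSMB3 (core), 29% for PSMD13 and 39% for PSMD4 (both in the regulatory particle), and 82.6% for PSMB9. On the Sscrofa11.1 assembly, RefSeq places PSME1 at chr7:75161830-75164531, where it overlaps EMC9, and PSMC3IP at chr12:20244243-20250151, where it overlaps MLX. PSMD13 lies 34 bases from SIRT3, and no RefSeq gene overlaps PSMB3. In the unstranded count PSME1 had 0 to 10 pairs per pig (median 3) and PSMC3IP 0 to 8 (median 3), and the testis form of an alpha subunit, PSMA8, had 0 or 1. PSMB11, the thymus-specific beta subunit, had 0 pairs in every pig.

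**Figure D1:**
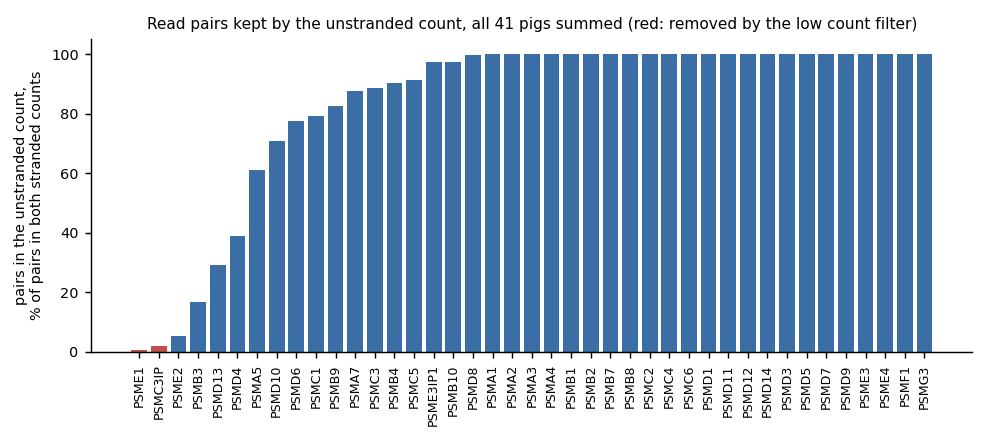
For 41 proteasome genes, bars give the percentage of the pairs in the 2 strand-specific columns that the unstranded count also holds, as a ratio of totals over 41 pigs. PSME1 (0.662%), PSMC3IP (1.86%), PSME2 (5.21%) and PSMB3 (16.5%) lie lowest, and red bars are the genes that did not pass the filter on low counts.

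Levels of the constitutive subunits varied little between pigs, and those of the immunoproteasome varied widely. The SD of log2 CPM over the 41 pigs had a median of 0.27 over 11 core genes (0.20 to 0.40) and 0.25 over 16 regulatory particle genes (0.17 to 0.34), against 0.34 over all genes tested. It was 0.89 for PSMB8, 1.15 for PSMB9 and 0.70 for PSMB10, and 5 to 95% of all genes lay between 0.17 and 0.79. After the model the SD left was 0.68, 0.88 and 0.48. The highest pig had 16.2 times the level of the lowest for PSMB8, 41.6 times for PSMB9 and 9.22 times for PSMB10. PSME2, an interferon-induced subunit of the 11S activator, had 13.1 times in the small share of its pairs that was counted, with 219 to 682 pairs per pig in the strand columns. The assembly chaperone PSMG3 had 4.17 times, and every other tested member was between 1.6 and 3.61 times.

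PSMB9, the immunoproteasome's beta1i subunit, had 0.948 to 9.07 CPM in Duroc (median 1.64) and 0.66 to 27.4 CPM in Landrace (median 2.08). PSMB8, its beta5i subunit, had 2.64 to 17.4 CPM in Duroc (median 4.33) and 1.51 to 24.4 CPM in Landrace (median 4.99). In both genes the range of Duroc lay within that of Landrace. PSMB10, the beta2i subunit, had 3.83 to 22.1 CPM in Duroc (median 5.72) and 4.65 to 35.3 CPM in Landrace (median 7.35). The constitutive subunit it replaces, PSMB7, had 47.9 to 117 CPM in Duroc (median 52.2) and 46.7 to 126 CPM in Landrace (median 59.5). Per 100 pairs of PSMB7, PSMB10 had 6.96 to 35 pairs in Duroc (median 10.1) and 7.01 to 30.6 in Landrace (median 13.4), so their ratio varied within each breed more than between the breed medians. Transcript lengths were not at hand, so this ratio compares pigs and not the amounts of both proteins. Raw counts behind these values were low to moderate, with medians of 122 for PSMB8, 51 for PSMB9 and 178 for PSMB10.

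**Figure D2:**
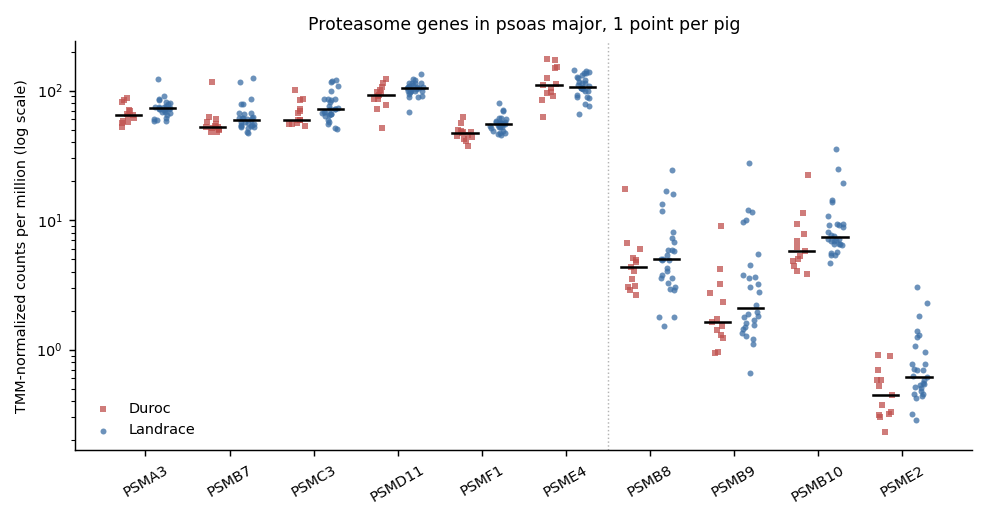
TMM-normalised CPM (log axis) of 10 proteasome genes in each pig, with Duroc as red squares, Landrace as blue circles and the breed median as a black bar. PSMA3, PSMB7, PSMC3, PSMD11, PSMF1 and PSME4 stay within a narrow band, while PSMB8, PSMB9, PSMB10 and PSME2 spread over up to 41.6 times between the lowest and the highest pig.

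The comparison of breeds asked whether the genes differed between Landrace and Duroc at equal FCR, RIN, age and batch. At a false discovery rate (FDR, the Benjamini-Hochberg adjusted p over all genes) below 0.1, 14 of the 39 tested members were higher in Landrace and 0 were lower, while 15.6% of all genes tested were higher and 17.5% lower. No member was lower at an unadjusted p below 0.05 in edgeR either, and DESeq2 and limma-voom also called 0 lower, with 15 and 13 higher. The median Landrace minus Duroc log2 difference was 0.19 over the members and -0.002 over all genes. This split depended on the scaling. With library size alone, which moved the median of all genes to -0.181, 1 member was higher (PSMC3) and 1 lower (PSME3) against 4.79% and 32.3% of all genes, and the member median stayed 0.19 above that of all genes.

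The base ATPases, which unfold the substrate, held the largest share, with 4 of 6 higher in Landrace (median 0.27). PSMC3 had 53.5 to 101 CPM in Duroc (median 59.1) and 50.7 to 121 CPM in Landrace (median 71.8). The ranges overlapped, with the medians apart, and the adjusted log2 difference was 0.38 (SE 0.0938, FDR 0.00322). PSMC5, PSMC2 and PSMC1 differed by 0.29 (FDR 0.0185), 0.26 (FDR 0.0213) and 0.30 (FDR 0.0259). The ubiquitin receptor PSMD4 and the scaffold PSMD1, both also of the base, were not called, at 0.18 (FDR 0.132) and 0.025 (FDR 0.9), though with both strand-specific columns summed PSMD4 was called at 0.22 (FDR 0.051).

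Of 8 lid genes, 3 were higher in Landrace (median 0.21). PSMD11, a scaffold subunit of the lid, had 51.1 to 122 CPM in Duroc (median 92.3) and 67.7 to 133 CPM in Landrace (median 105), which gave a difference of 0.41 (SE 0.0965, FDR 0.00223). PSMD6, another scaffold subunit, differed by 0.29 (FDR 0.0146). For PSMD13 the difference of 0.22 (FDR 0.0249) rested on the pairs that were counted, and with both strand-specific columns summed it was -0.14 (FDR 0.499). PSMD7 had 0.23 (FDR 0.109) and was called at 0.23 (FDR 0.0735) with the summed columns. PSMD14, the lid's deubiquitinase, differed by -0.040 and was not called.

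In the core, 2 of 6 alpha and 1 of 5 constitutive beta subunits were higher in Landrace. PSMA3 had 52.2 to 88 CPM in Duroc (median 65) and 58.2 to 123 CPM in Landrace (median 73.1), with a difference of 0.32 (SE 0.095, FDR 0.0113). PSMA1 and PSMB2 differed by 0.27 (FDR 0.0507) and 0.19 (FDR 0.0917). PSMB7, whose trypsin-like site PSMB10 replaces, differed by 0.098 (FDR 0.479). PSMB3 had -0.015 (FDR 0.95), but 0.29 (FDR 0.0389) with both strand-specific columns summed.

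Among regulators and chaperones, the lowest FDR was that of PSMF1, the inhibitor known as PI31. It had 37.2 to 62 CPM in Duroc (median 47.4) and 45 to 80.6 CPM in Landrace (median 55.5), and the difference was 0.30 (SE 0.0675, FDR 0.00162). PSMD5, a chaperone of base assembly with 6.41 to 15.6 CPM in Duroc and 9.93 to 16.3 CPM in Landrace, differed by 0.40 (SE 0.127, FDR 0.0205) after adjustment although its unadjusted medians were close, at 12.8 CPM for Duroc pigs against 12.7 CPM for Landrace pigs. PSMG3, a chaperone of core assembly, had 1.71 to 4.75 CPM in Duroc (median 2.49) and 2 to 7.13 CPM in Landrace (median 2.95), with a difference of 0.44 (SE 0.157, FDR 0.0348). PSME2 had 0.232 to 0.907 CPM in Duroc (median 0.444) and 0.284 to 3.05 CPM in Landrace (median 0.619), with a difference of 0.76 (SE 0.329, FDR 0.0846).

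None of the 3 immunoproteasome genes was called between breeds, in edgeR at an unadjusted p below 0.05, in DESeq2 or in limma-voom. Their Landrace minus Duroc differences were 0.27 for PSMB8 (SE 0.392, FDR 0.654), 0.65 for PSMB9 (SE 0.549, FDR 0.406) and 0.32 for PSMB10 (SE 0.289, FDR 0.446). Their standard errors were wider than those of the called constitutive subunits.

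Fits within single batches held FCR, RIN and breed but not age, and fewer pigs. The called breed differences that could be fitted there kept their direction apart from PSMD6 in batch 3 (-0.056). In batches 2, 3 and 5 (15, 9 and 11 pigs) the values were 0.16, 0.20 and 0.25 for PSMF1, 0.087, 0.36 and 0.63 for PSMD11, 0.10, 0.41 and 0.43 for PSMC3, 0.19, 0.23 and 0.26 for PSMA3, and 0.62, 0.34 and 0.11 for PSMD5. PSMB9 had 1.20, 1.22 and -0.39 in the same batches. Without age in the model, 8 members were called higher in place of 14, against 13.2% of all genes.

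**Figure D3:**
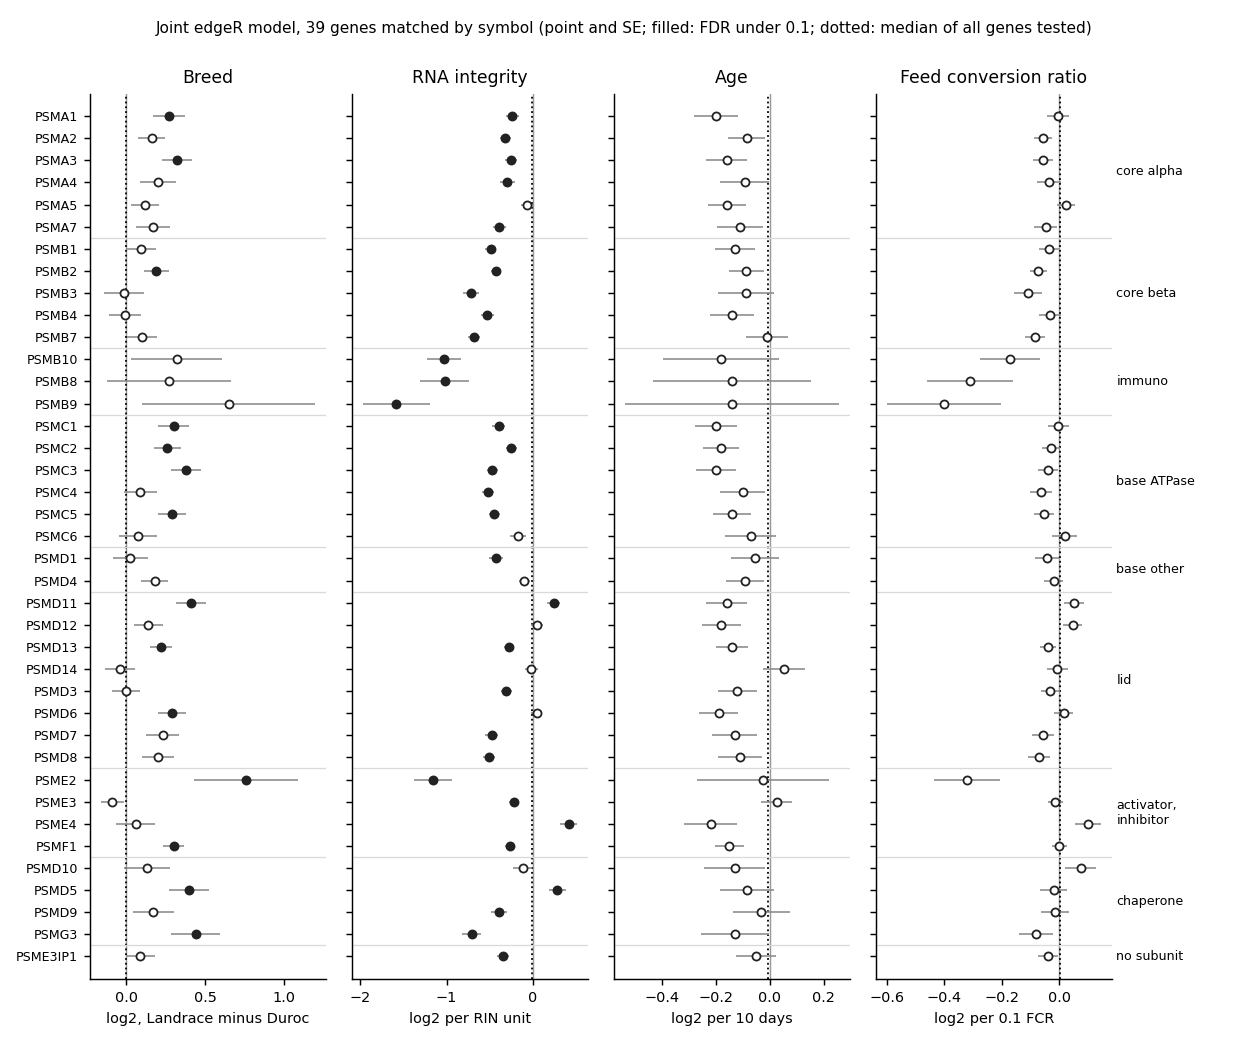
Log2 coefficients of 39 tested proteasome genes from the joint model, with points for estimates, bars for 1 SE, filled points for FDR below 0.1 and a dotted line at the median of all genes; panels are Landrace minus Duroc, RIN per unit, age per 10 days and FCR per 0.1. Breed estimates lie mostly to the right (14 called), RIN estimates mostly to the left (29 called falling, 3 rising), and no age or FCR estimate is called.

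RIN was the factor with which most members moved. Per unit of RIN, 29 of 39 members fell and 3 rose, against 27.9% and 23.9% of all genes, and the median log2 change was -0.35 over the members and -0.010 over all genes. With library size alone, the median of all genes moved to 0.298, and 15 members fell and 8 rose against 7.91% and 55.8% of all genes, while the member median stayed 0.33 below that of all genes. The decline was therefore relative to other genes in the same libraries, and with library size alone 7 of the falling members (PSMA1, PSMA3, PSMA4, PSMC2, PSMD13, PSME3 and PSMF1) had slopes above 0.

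In the core, 10 of 11 constitutive subunits fell (median -0.39). All 5 beta subunits fell (median -0.53), with PSMB7 at -0.68 (SE 0.0672, FDR 7.73e-09) and PSMB3 at -0.72 (SE 0.0908, FDR 1.39e-07). PSMB7 had 61.2 to 126 CPM in the 6 pigs with RIN below 7.5 (median 91.7) and 46.7 to 60.7 CPM in the 12 pigs with RIN of 8.3 or more (median 53.1). Under TMM scaling these 2 groups of pigs did not overlap. PSMB1, PSMB2 and PSMB4 fell by 0.49, 0.43 and 0.53. PSMB3 was among the genes counted in part, and with both strand-specific columns summed its slope was -0.24 (FDR 0.015). Of the 6 alpha subunits 5 fell (median -0.28), with PSMA7 at -0.39 (FDR 0.000117), PSMA2 at -0.32 (SE 0.0635, FDR 0.000104) and PSMA4 at -0.30 (FDR 0.00394), and PSMA5 was not called at -0.071 (FDR 0.394). The unstranded count held 61.1% of the strand-column pairs of PSMA5, and with both strand-specific columns summed it rose by 0.29 (FDR 0.00271).

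In the regulatory particle 10 of 16 genes fell and 1 rose (median -0.30), and its parts differed in count. Of 6 base ATPases 5 fell (median -0.42), with PSMC4 at -0.52 (SE 0.0732, FDR 8.06e-07), PSMC3 at -0.47 (SE 0.0677, FDR 1.22e-06) and PSMC5 at -0.45 (FDR 1.34e-06). PSMC6 was not called at -0.17 (FDR 0.132). PSMC3 had 86.2 to 121 CPM in the pigs with low RIN (median 105) and 50.7 to 85.8 CPM in those with high RIN (median 66.1), again without overlap under TMM scaling. Among 8 lid genes, 4 fell, including PSMD8 at -0.51 (SE 0.074, FDR 1.22e-06), PSMD7 at -0.48 (FDR 4.49e-06) and PSMD3 at -0.31 (FDR 0.000176). In the base, PSMD1 fell by 0.43 (SE 0.0789, FDR 3.47e-05) and PSMD4 had -0.10 (FDR 0.21), but -0.33 (FDR 5.39e-05) with both strand-specific columns summed. PSMD11 rose by 0.24 (SE 0.0744, FDR 0.00817), and PSMD6, PSMD12 and PSMD14 lay between -0.020 and 0.045 and were not called.

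PSME4, the large ATP-independent activator PA200, rose with RIN by 0.41 (SE 0.0963, FDR 0.000678). It had 62.3 to 88.5 CPM at low RIN (median 77.4) and 97 to 171 CPM at high RIN (median 120). It was the 1 member in which every low-RIN pig lay below every high-RIN pig, as 2.36% of all genes did. In 6 members (PSMB7, PSMC1, PSMC3, PSMC4, PSMC5 and PSMD7) every low-RIN pig lay above every high-RIN pig, as 4.53% of all genes did. Both counts are of TMM-normalised CPM, whose scaling factors were lower at low RIN, and were not made with library size alone. Among chaperones, PSMG3 fell by 0.71 (SE 0.108, FDR 2.68e-06), PSMD9 fell by 0.39 (FDR 0.000951) and PSMD5 rose by 0.28 (SE 0.098, FDR 0.0187). PSMF1 fell by 0.27 (FDR 3.68e-05) under TMM scaling, but with library size alone its slope was 0.039 (FDR 0.468). The activator subunit PSME3 fell by 0.22 (FDR 0.00128), and the non-subunit PSME3IP1 by 0.35 (FDR 6.48e-05).

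In the counts used, the immunoproteasome genes and PSME2 fell with RIN by more than 1 on the log2 scale. PSMB9 fell by 1.58 per unit (SE 0.384, FDR 0.00101), PSMB10 by 1.03 (SE 0.202, FDR 8.73e-05), PSMB8 by 1.02 (SE 0.282, FDR 0.00347) and PSME2 by 1.16 (SE 0.221, FDR 5.58e-05), the last by 0.64 (FDR 0.000671) with both strand-specific columns summed. Yet PSMB9 had 0.66 to 27.4 CPM at low RIN (median 2.45) and 0.948 to 4.22 CPM at high RIN (median 1.78), so low-RIN pigs included both the lowest and the highest level of all. PSMB8 ran from 1.79 to 24.4 CPM at low RIN (median 4.48) and from 2.64 to 8.05 CPM at high RIN (median 4.92). For PSMB10 the range was 6.51 to 35.3 CPM at low RIN (median 9.09) and 3.83 to 11.3 CPM at high RIN (median 5.92).

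Leaving out the 3 libraries with the lowest totals, a choice made after seeing the data, left 11 members falling and 0 rising, against 9.81% of all genes falling and 7.45% rising. The slope was then -0.40 for PSMB7 (FDR 0.0145) and -0.41 for PSMC3 (FDR 0.0203), whereas it was -0.39 for PSMB8 (FDR 0.603), -0.80 for PSMB9 (FDR 0.406), -0.77 for PSMB10 (FDR 0.115), 0.37 for PSME4 (FDR 0.101) and 0.060 for PSMD11 (FDR 0.701). Without the pigs of RIN below 7, also chosen after seeing the data, 25 members fell and 1 rose (PSME4 at 0.42, FDR 0.0152), against 20.1% of all genes falling and 15.5% rising. PSMB8 and PSMB9 again were not called, at -0.33 (FDR 0.542) and -0.68 (FDR 0.341), and PSMB10 was called at -0.66 (FDR 0.0726).

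Within batches 2, 3 and 5, fitted without age, the RIN slope of PSMB7 was -0.70, -1.30 and -0.56. That of PSMC3 was -0.50, -1.19 and -0.38. PSME4 had 0.45, -0.49 and 0.53, so in batch 3, with 9 pigs, its sign turned without being called (FDR 0.496). PSMB8 had -0.97, 0.008 and -1.45 (FDR 0.998 for the middle value), PSMB9 -1.18, -1.65 and -2.16, and PSMB10 -1.02, -1.17 and -1.16. A test of the difference in RIN slope between breeds called 0 members in edgeR, DESeq2 and limma-voom. At an unadjusted p below 0.05 each tool had 1, and in edgeR it was PSMD11 (-0.48, p = 0.00242, FDR 0.844), while 4.85% of all genes reached that p in edgeR.

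**Figure D4:**
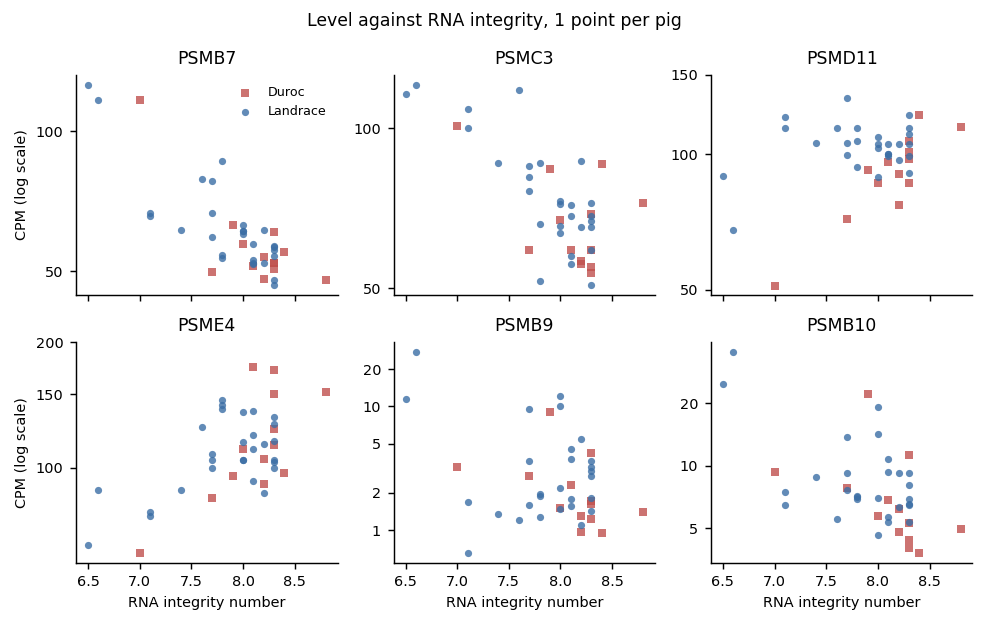
TMM-normalised CPM (log axis) against RIN in each of 41 pigs for 6 proteasome genes, with Duroc as red squares and Landrace as blue circles. PSMB7 and PSMC3 fall with RIN and PSME4 rises, whereas the high PSMB9 level at low RIN comes from Landrace 27 and Landrace 1 (27.4 and 11.5 CPM), beside Duroc 10 at 3.23 CPM.

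Sampling age was not linked to any member at FDR below 0.1 in edgeR or limma-voom, and DESeq2 called PSMF1. At an unadjusted p below 0.05 edgeR had 12 of the 39, when 16% of all genes (1778) reached it, and 0.727% of all genes were called falling. The estimates were nevertheless mostly of 1 sign, with 37 of 39 below 0 (median -0.13 per 10 days) against 51.4% of all genes. With library size alone, 32 of 39 members and 33% of all genes were below 0. Age estimates of cell type markers also leaned to 1 side, with 8 of 8 muscle fibre genes below 0 (median -0.14). All 5 endothelial (median 0.46) and all 5 fibroblast genes (median 0.62) lay above 0. Only 2 endothelial genes of these were called, where 1.03% of all genes were called rising. The part of these markers in the members' estimates was not tested. PSMF1 changed by -0.15 per 10 days (SE 0.0537, p = 0.00719, FDR 0.163) and PSMC3 by -0.20 (SE 0.0747, p = 0.00945, FDR 0.176). In the other classes the smallest p belonged to PSMA1 (-0.20, FDR 0.22), PSMB4 (-0.14, FDR 0.389), PSMD6 (-0.19, FDR 0.19) and the chaperone PSMD10 (-0.13, FDR 0.586). All 11 core genes and 15 of 16 regulatory genes were negative, as were the 3 immunoproteasome genes (median -0.14), and PSMD14 and PSME3 were the positive ones. Without the 3 lowest libraries PSMC1 and PSMC2 were called, at -0.25 and -0.22 (both FDR 0.0753). Age differed between the breeds, and the ages of both overlapped only from 147 to 156 days.

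FCR was the trait around which the study was designed. The labelled values have the size of feed eaten per weight gained, while the methods word the ratio the other way round, so directions here refer to the labelled number. Of the 39 members 0 rose and 0 fell with FCR at FDR below 0.1 in edgeR, DESeq2 and limma-voom, and in edgeR 0% of all genes did in each direction. At an unadjusted p below 0.05 edgeR had 6 members, against 8.68% (968) of all genes, and DESeq2 and limma-voom had 7 each. Estimates were below 0 for 31 of 39 members against 48.5% of all genes, with a median of -0.035 per 0.1 FCR. Library size alone moved the median of all genes from 0.003 to 0.061. Then 10 of 39 members and 18% of all genes were below 0, so the sign depended on the scaling. Of 8 muscle fibre genes 6 were below 0 under TMM scaling (median -0.076), 4 of the 8 had an unadjusted p below 0.05 and 0 were called. Their part in the members' estimates was not tested.

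PSME2 had the smallest p, at -0.32 per 0.1 FCR (SE 0.115, p = 0.00933, FDR 0.529), and -0.18 (p = 0.0253, FDR 0.523) with both strand-specific columns summed. In the core, PSMB2 changed by -0.072 (SE 0.0303, p = 0.0226), PSMB7 by -0.084 (SE 0.0358, p = 0.0246) and PSMB3 by -0.11 (SE 0.0487, p = 0.0343), each with an FDR between 0.535 and 0.551. For PSMB3 the value was -0.027 (p = 0.515) with both strand-specific columns summed. PSME4 had a positive estimate of 0.10 (SE 0.0456, p = 0.0285, FDR 0.547). PSMA2 had the smallest p of the alpha subunits (-0.056, p = 0.0833) and PSMD10 that of the chaperones (0.075, p = 0.17). None of the 16 regulatory particle genes reached an unadjusted p of 0.05.

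The immunoproteasome genes also had negative estimates that were not called. PSMB8 changed by -0.31 per 0.1 FCR (SE 0.149, p = 0.0448, FDR 0.569), PSMB9 by -0.40 (SE 0.199, p = 0.0537, FDR 0.578) and PSMB10 by -0.17 (SE 0.105, p = 0.118, FDR 0.648). Fitted within breeds, PSMB8 had 0.24 in Duroc and -0.55 in Landrace, PSMB9 0.21 and -0.64, and PSMB10 0.13 and -0.27. The difference between breeds did not pass the test, with FCR by breed terms of -0.54 for PSMB8 (SE 0.284, p = 0.0643, FDR 0.922), -0.61 for PSMB9 (p = 0.136) and -0.22 for PSMB10 (p = 0.305). Over all members the FCR by breed term was called for 0, with 0 at an unadjusted p below 0.05 in edgeR and limma-voom and 1 in DESeq2, while 5.22% of all genes reached that p in edgeR. With both strand-specific columns summed, PSME2 reached it at -0.40 (p = 0.00808, FDR 0.908).

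Batches, fitted without age, also differed in sign for these genes. Per 0.1 FCR, PSMB8 changed by -0.68 in batch 2 (p = 8.23e-05, FDR 0.224), -0.21 in batch 3 and 0.30 in batch 5. PSMB9 had -0.80 (p = 0.000385, FDR 0.336), -0.75 and 0.33, and PSMB10 -0.44, -0.19 and 0.19. The median PSMB9 level was 3.59 CPM in batch 2 and between 0.948 and 1.77 CPM in each other batch.

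Levels of the 3 immunoproteasome genes rose and fell together from pig to pig. The same 6 pigs had the 6 highest levels in each gene. They were Landrace 27 (27.4 CPM of PSMB9), Landrace 11 (12 CPM), Landrace 1 (11.5 CPM), Landrace 3 (9.98 CPM), Landrace 9 (9.6 CPM) and Duroc 13 (9.07 CPM). Their RIN was 6.5 to 8.0, their FCR 1.91 to 2.13, and they came from batches 2, 3 and 5. PSMB8 and PSMB9 are neighbours in the MHC region of chromosome 7, at chr7:25058456-25061666 and chr7:25072133-25077508 on Sscrofa11.1, with the peptide transporter gene TAP1 between them. PSMB10 lies on another chromosome, at chr6:28544910-28547609.

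Between pairs of immunoproteasome genes the median Pearson correlation of log2 CPM over the 41 pigs was 0.90, and 0.87 after breed, RIN, age, FCR and batch were taken out. It was 0.73 (0.63 after the model) between core genes, 0.67 (0.54) between core and regulatory genes and 0.46 (0.48) between regulatory genes, when all pairs of tested genes had a median of -0.00 with an SD of 0.31. Between core and immunoproteasome genes it was lower, at 0.35 (0.26). With library size alone the values were 0.45 between core genes, 0.37 between core and regulatory genes, 0.33 between regulatory genes, 0.90 between immunoproteasome genes and 0.20 between core and immunoproteasome genes, beside 0.27 for all pairs. By Spearman's rho on TMM-normalised values the last pairing had a median of 0.15. These are descriptions, since the genes share libraries and scaling. After the model, the closest pair of core and regulatory subunits was PSMB7 with PSMC4 (0.89), and PSMD11 had a median correlation of -0.25 with the others.

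Several genes of the interferon response and of peptide loading moved with the immunoproteasome from pig to pig. PSMB9 correlated with GBP1, an interferon-induced GTPase, at r = 0.942 (rho = 0.939). With TAP1 it had r = 0.853 (rho = 0.803) and with TAPBP, the tapasin of the loading complex, r = 0.906 (rho = 0.841). Each of these 3 had a permutation p of 1e-05 for r and for rho, the smallest that 100000 permutations can give, and adjusted values of 3.71e-05 for r and 4.50e-05 for rho over 63 relations computed. Without the 2 pigs farthest from the median of the other gene, r was 0.937 for GBP1, 0.822 for TAP1 and 0.887 for TAPBP. Within batches 2, 3 and 5, r with GBP1 was 0.946, 0.949 and 0.941. PSMB10, away from the MHC region, correlated with GBP1 at r = 0.805 (adjusted permutation p of 3.71e-05) and rho = 0.72 (adjusted 4.50e-05), at 0.752 without the 2 farthest pigs, and at 0.876, 0.751 and 0.793 within the same batches. For 2 other interferon-induced genes r with PSMB9 was 0.364 with ISG15 (permutation p = 0.0189, adjusted 0.0398; rho = 0.39) and 0.11 with MX1 (p = 0.494, adjusted 0.599; rho = 0.175). Among genes of peptide loading, the chaperone CANX had r = -0.241 with PSMB9 (adjusted permutation p = 0.194, rho = -0.248) and -0.425 with PSMB10 (adjusted 0.0133, rho = -0.47). With PSMB9, PDIA3 had r = 0.289 (adjusted 0.108) and rho = 0.321 (adjusted 0.0779). The peptidase ERAP1 had r = 0.237 (adjusted 0.195) and rho = 0.442 (adjusted 0.00965). With PSMB8, r was 0.389 for PDIA3 (adjusted 0.0255) and 0.303 for ERAP1 (adjusted 0.0869), and with PSMB10 0.102 and -0.013.

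The leukocyte genes moved with these levels to a lesser degree. Their summed level correlated with PSMB9 at r = 0.47 (p = 0.00201, adjusted 0.00507) and rho = 0.521 (p = 0.0006, adjusted 0.0018), with PSMB8 at r = 0.564 (rho = 0.586) and with PSMB10 at r = 0.235 (p = 0.137, rho = 0.211), all by permutation test. Without the 2 farthest pigs r was 0.44, 0.517 and 0.27 for PSMB9, PSMB8 and PSMB10, and within batches 2, 3 and 5 it was 0.389, 0.351 and 0.501 for PSMB9. Within Duroc r was 0.0477, 0.218 and 0.00703 for PSMB9, PSMB8 and PSMB10 and within Landrace 0.559, 0.642 and 0.286, and the difference between breeds was not tested. With the leukocyte level added to the model, a choice made after seeing the data, the 3 FCR estimates stayed negative (median -0.29). The part of leukocytes in the immunoproteasome levels was not tested further. For RIN the correlation with PSMB9 was r = -0.343 (p = 0.0281, adjusted 0.0505) and rho = -0.195 (p = 0.219), and without the 2 pigs farthest from the median RIN it was 0.017, so it rested on those pigs. PSMB8 had r = -0.245 (permutation p = 0.123, adjusted 0.189), rho = -0.0685 and r = 0.125 without them. PSMB10 had r = -0.565 (permutation p = 0.00032, adjusted 0.00096), rho = -0.506 (adjusted 0.0026) and r = -0.278 without them. Within batches 2, 3 and 5 the values were -0.538, -0.0849 and -0.555 for PSMB9 and -0.666, -0.477 and -0.722 for PSMB10.

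**Figure D5:**
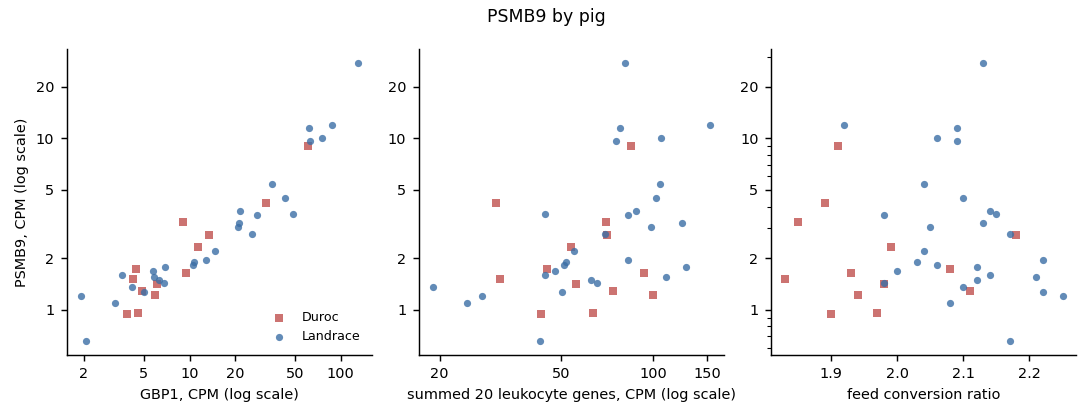
TMM-normalised CPM of PSMB9 in each of 41 pigs against GBP1, against the sum of 20 leukocyte genes and against FCR, with CPM on log axes, Duroc as red squares and Landrace as blue circles. PSMB9 follows GBP1 closely (r = 0.942) and the leukocyte sum loosely (r = 0.47), and its highest pig, Landrace 27 at 27.4 CPM, has an FCR of 2.13.

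Other genes of the pathway were read from fixed lists. Of 12 further subunits, assembly factors and associated proteins, 7 were higher in Landrace and 0 lower (median 0.33), where 15.6% of all genes were higher and 17.5% lower, and 3 fell and 2 rose with RIN, where 27.9% of all genes fell and 23.9% rose. PITHD1 was higher by 0.50 (FDR 1.27e-05), and USP14, the deubiquitinase that sits on the base, by 0.61 (FDR 0.000386). POMP, the maturation chaperone of the core, fell with RIN by 0.42 (FDR 7.47e-07) while USP14 rose by 0.64 (FDR 2.61e-06). Of 7 genes that control proteasome gene expression 3 were higher in Landrace, against 15.6% of all genes. They were NGLY1, which activates the factor NFE2L1, by 0.77 (FDR 0.0014), KEAP1 by 0.35 (FDR 0.0013) and MAFG by 0.35 (FDR 0.0529). NFE2L1 itself was not called, at 0.11 (FDR 0.535). MAFG, a partner of that factor, fell with age by 0.39 per 10 days (FDR 0.0768).

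Of 9 genes that deliver substrates 4 were higher in Landrace, against the same 15.6%, including VCP, the segregase p97, by 0.24 (FDR 0.0302). Of 4 genes of ubiquitin supply 0 differed between breeds at FDR below 0.1 in edgeR. In the peptide loading and interferon list 0 of 14 were higher in Landrace and 3 were lower, where 17.5% of all genes were lower. These were CALR by 0.38 (FDR 0.0013), PDIA3 by 0.32 (FDR 0.0273) and NLRC5 by 0.49 (FDR 0.0894). With RIN 4 of the 14 fell, a share close to the 27.9% of all genes, among them ISG15 by 1.02 (FDR 0.00293) and GBP1 by 1.26 (FDR 0.0576). With FCR none of these lists had a gene called in edgeR. In the loading and interferon list 12 of 14 estimates were below 0 (median -0.11 per 0.1 FCR) against 48.5% of all genes, with TAP1 at -0.20 (p = 0.123). For its FCR by breed term 13 of 14 were below 0 (median -0.34) against 49.7% of all genes, and 8 reached an unadjusted p below 0.05, against 5.22% of all genes, with 0 called and the lowest FDR at 0.922. Leukocyte genes had the same signs, with 13 of 15 below 0 for FCR (median -0.10) and 14 of 15 for FCR by breed (median -0.27), 1 and 2 of them at an unadjusted p below 0.05. Their part in the FCR estimates of the loading list was not tested.

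Marker genes of some cell types also moved with breed, beside 15.6% of all genes higher and 17.5% lower in Landrace, and with RIN, beside 23.9% rising and 27.9% falling. Of 15 leukocyte genes tested 1 was lower in Landrace and 2 fell with RIN. All 5 endothelial genes tested were lower in Landrace and 2 rose with age (1.03% of all genes). The 6 listed endothelial genes with counts had a summed level of 59.4 to 172 CPM in Duroc (median 133) and 32 to 145 CPM in Landrace (median 90.9). Of 8 muscle fibre genes 5 were higher in Landrace, and with RIN 3 fell and 1 rose. Their sum was 134490 to 182278 CPM in Duroc (median 166096) and 127350 to 234944 CPM in Landrace (median 174985). Of 3 adipocyte genes tested 1 was lower in Landrace (ADIPOQ at -2.67, FDR 0.0451). Of 6 slow fibre genes 2 were lower in Landrace and 5 fell with RIN, with sums of 4623 to 14877 CPM in Duroc (median 7067) and 1526 to 18489 CPM in Landrace (median 5977). Of 5 fibroblast genes 2 were lower in Landrace and 3 rose with RIN (COL3A1 by 0.93, LUM by 1.06 and PDGFRA by 1.62), with sums of 499 to 3720 CPM in Duroc (median 1425) and 495 to 10257 CPM in Landrace (median 1331). The part of these shifts in the breed and RIN results of the proteasome genes was not tested.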

How the data were processed

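Psoas major mRNA of 41 pigs was sequenced as unstranded 100-base paired-end reads on a BGISEQ instrument. The authors trimmed with Trimmomatic 0.39 and aligned to Sscrofa11.1 using STAR 2.7.1a, which also made the deposited counts per Ensembl gene (raw, not normalized). The unstranded column was used. Rows naming no gene (19.1 to 30.1% of pairs) were left out. Of the gene IDs, 14857 had a symbol in the name table.

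Libraries were scaled with TMM, genes filtered with filterByExpr, and tested with edgeR's quasi-likelihood test in 1 model of FCR (per 0.1), RIN (per unit), age (per 10 days), breed and batch (5 levels, of 1, 15, 9, 5 and 11 pigs), with Benjamini-Hochberg adjustment over 11146 genes and FDR 0.1 as threshold. Breed interactions with FCR and RIN were added 1 at a time. "Called" means past that threshold. Printed CPM are TMM-normalised. Correlations used 100000 permutations, two-sided. The steps were tested on simulated data. No pair of libraries agreed within sampling noise (lowest chi-square per degree of freedom 17.8).

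Members named were the catalytic and immunoproteasome subunits, PSME1, PSME2, untested and non-subunit members, and in each class the gene with the smallest p for each term; from pathway lists, the genes with the smallest p. Further genes were named after their values were seen. Alternatives were DESeq2, limma-voom, other scalings and filters, single breeds and batches, and omitted pigs. Members and lists were chosen with earlier results of these data known. Levels were not compared between genes, and sequences are not shown, as transcript lengths and sequences were not used here. Some results for genes of the pathway lists are not reported here.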

Additional observations from a re-analysis of the deposited data

Results flagged for a closer look

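A signal outside the counts used was found for 3 members. In the 2 strand-specific columns summed, PSME1 had a median of 470 pairs per pig (338 to 621), PSME2 309 (219 to 682) and PSMC3IP 157 (122 to 264), above the few pairs per pig that the unstranded count holds for PSME1 and PSMC3IP. Where genes overlap, both receive the shared pairs in these columns, and the part of EMC9 and MLX in them was not tested. Fitted on these sums, PSME1, an interferon-induced activator subunit, fell with RIN by 0.51 (FDR 2.32e-06), was higher in Landrace by 0.27 (FDR 0.0456) and changed by -0.086 per 0.1 FCR (FDR 0.524). PSME2 was higher in Landrace by 0.58 (FDR 0.0341) and fell with RIN by 0.64 (FDR 0.000671). PSMC3IP was higher in Landrace by 0.33 (FDR 0.0407) and fell with RIN by 0.42 (FDR 0.000335).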

How the results depend on the processing

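For the 46 called values of members, 747 alternative values were computed, of which 564 kept direction and call, 171 kept direction and lost the call, and 12 turned sign. With library size alone the RIN slopes of PSMA1 (0.075), PSMA3 (0.056), PSMA4 (0.019), PSMC2 (0.071), PSMD13 (0.032), PSME3 (0.10) and PSMF1 (0.039) turned. Within batch 3 those of PSMB8 (0.008), PSMD11 (-0.015) and PSME4 (-0.49) and the breed difference of PSMD6 (-0.056) did, and with the strand columns the breed difference of PSMD13 (-0.14). The count of members higher in Landrace (14) became 1 with library size alone, 1, 0 and 2 within batches 2, 3 and 5 (4.68%, 0.0561% and 5.04% of all genes), and 8 without age, and the count of lower members (0) became 1 with library size alone. Members rising with RIN (3) became 8 with library size alone, 0 within Duroc, 1 within batch 2, 0 within batch 3, 0 without the 3 libraries of lowest total and 1 without pigs of RIN below 7 (55.8%, 0%, 16.3%, 0%, 7.45% and 15.5% of all genes). Members falling with RIN (29) became 15 with library size alone, 0 within Duroc, 0 within batch 3 (0% of all genes in both), 19 within batch 5 (15.6%) and 11 without the 3 libraries. Members falling with age (0) became 1 with DESeq2, 3 with batch as a number and 2 without the 3 libraries (2.17%, 3.31% and 1.25% of all genes). The RIN by breed term, with 0 called, called 1 positive (PSMD1) and 1 negative (PSMD11) without pigs of RIN below 7, as 0.251% and 0.852% of all genes were. Both omissions of pigs were chosen after seeing the data. Fits within a breed or batch held fewer pigs, which alone lowers counts, and those within a batch also left out age. For the other changes the cause was not tested. No paired analysis was possible because the labels give no replicate numbers shared by the breeds. Batches 1 and 4 held 1 and 5 pigs and were not fitted. Counts of PSMB9 (14 to 395 pairs per pig) limit its precision more than those of constitutive subunits.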
